A study of Mus musculus with 10 samples.

Results

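The genes described here encode 10 surface proteins, ligands and receptors, of costimulation or restraint between B cells and T cells. They are Cd80, Cd86, Cd83, Icosl, Cd274, Pdcd1lg2, Cd276, Cd28, Ctla4 and Btla. They were taken by gene symbol, out of 18193 genes with a probe set on the array, and all 16 of their probe sets were used, out of 45101. The list was chosen by the array signals themselves, with the genotype difference in view, the opposite changes of Cd80 and Cd86 included. The members entered the fit over all genes, but because this contrast chose them, their differences are given as descriptions, with no p-value, and support no statement about the family. The samples were splenic B cells of C57BL/6 mice, with either both Irf4 alleles intact (Irf4+/+) or both disrupted (Irf4-/-). The mice were littermates 12 weeks old. There were 5 arrays per genotype. All cells of both genotypes had been purified by removing other spleen cells magnetically and then kept in culture for 3 days under stimulation through CD40 (by an antibody) plus IL-4 at 20 ng/ml, so no unstimulated sample enters any comparison. Nothing in the labels ties each of the 5 samples to its own mouse or culture, so the p-values given reflect only how these samples varied, and that variation may be technical. Irf4 encodes a transcription factor that activated B cells induce.

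B7 ligands on an antigen-presenting cell deliver the second signal that a T cell needs beside antigen. CD80 and CD86 both bind CD28, which activates the T cell, and CTLA-4, which restrains it and binds them more tightly. ICOS ligand supports follicular helper T cells, PD-L1 and PD-L2 (the products of Cd274 and Pdcd1lg2) engage the inhibitory receptor PD-1, and BTLA is an inhibitory receptor that B cells themselves carry. In B cells, CD40 and IL-4 are known inducers of CD80 and CD86.

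Values are array signals in MAS5 units, on arrays that each had a trimmed mean of 250.0. A signal of 26.1 is the 40th percentile of all values and is used here to call a signal dim. Irf4 signal fell but remained high in Irf4-/- samples, at 2792 ± 128 against 3761 ± 211 (SD, n = 5; limma adjusted p = 4.98e-06). A further Irf4 probe set that was tested had the same direction. Whether either probe set lies inside the disrupted part is not stated, so these values do not check the genotype. The B cell markers were bright in both genotypes, and all 7 that were matched rose in Irf4-/- samples. Of all genes 23.2% were called higher and 23.8% lower. Markers of other cells moved with genotype as well, as the plot of marker sums shows. All 10 natural killer cell genes rose, but 6 had a mean under the dim level in Irf4+/+ samples, and 0 in Irf4-/- samples. Such genes are helped through the filter by their Irf4-/- signal, which favours calls of a rise, so nothing is read from that count. The summed signal of the 10 was 1311 to 1559 in Irf4+/+ and 11617 to 16082 in Irf4-/- samples. Gzma and Gzmb, granzyme genes, made up most of that sum, and the other 8 genes summed to 171.9 to 258 and 1012 to 1152. That of 12 macrophage genes was 540 to 621.4 and 1650 to 1861, and of the 6 bright enough to test 4 rose. The defining macrophage gene C1qa was near 0 in both genotypes (2.54 ± 1.07 and 3.82 ± 1.64; SD, n = 5), and Adgre1 rose 3.87-fold. Csf1r had a log2 difference of 0.29 (limma adjusted p = 0.0771), but 0.55 (limma adjusted p = 0.00444) with the mean of its probe sets and 0.88 (limma adjusted p = 0.000241) with probe sets whose names carry no mark of shared sequence. The defining natural killer cell gene Ncr1 was dim in every Irf4+/+ array (4.80 to 22.2) and was 31.1 to 55.7 in Irf4-/- samples, so it has no reliable fold. That of 8 dendritic cell genes was lower, at 1041 to 1209 and 733.4 to 799.4. Of the 5 tested genes of this list 2 rose, 2 fell and 1 was not called, and their median log2 difference was 0.38. Without Flt3, a cytokine receptor gene, the other 7 summed to 645.4 to 747 and 698.4 to 749.3 and overlapped. Of the defining dendritic cell genes, Siglech was dim at 19.8 and 11.5. Zbtb46 rose 1.30-fold (limma adjusted p = 0.000674), with 1 of its 3 other tested probe sets of the opposite sign. That of 6 plasma cell genes was 11876 to 12904 and 8316 to 9891, and all 5 tested fell. Most of it was Xbp1, which fell 1.15-fold, with 1 of its 3 other tested probe sets of the opposite sign. The other 5 genes summed to 2287 to 2852 and 158.3 to 242.3, led by Jchain (980.8 ± 90.9 and 21.9 ± 10.1; SD, n = 5) and Cd93 (1204 ± 130 and 34.4 ± 17.7; SD, n = 5). These sums without their brightest genes were formed after the values were seen. Each full sum, over all matched genes of a list, separated the genotypes (exact two-sided permutation p = 0.00794, adjusted p = 0.00794 over 7 array measures). That p is the smallest that 5 against 5 can give. The lists were drawn up with earlier results of these data known, so nothing is read from these p-values. The sums without their brightest genes were not tested. The seventh measure, the summed signal of 3 probe sets of the 18S ribosomal RNA control, was 81.8 to 201.5 in Irf4+/+ and 275.4 to 608.7 in Irf4-/- samples. In cultures like these, more cells of a type and more RNA per cell cannot be told apart.

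**Figure D1:**
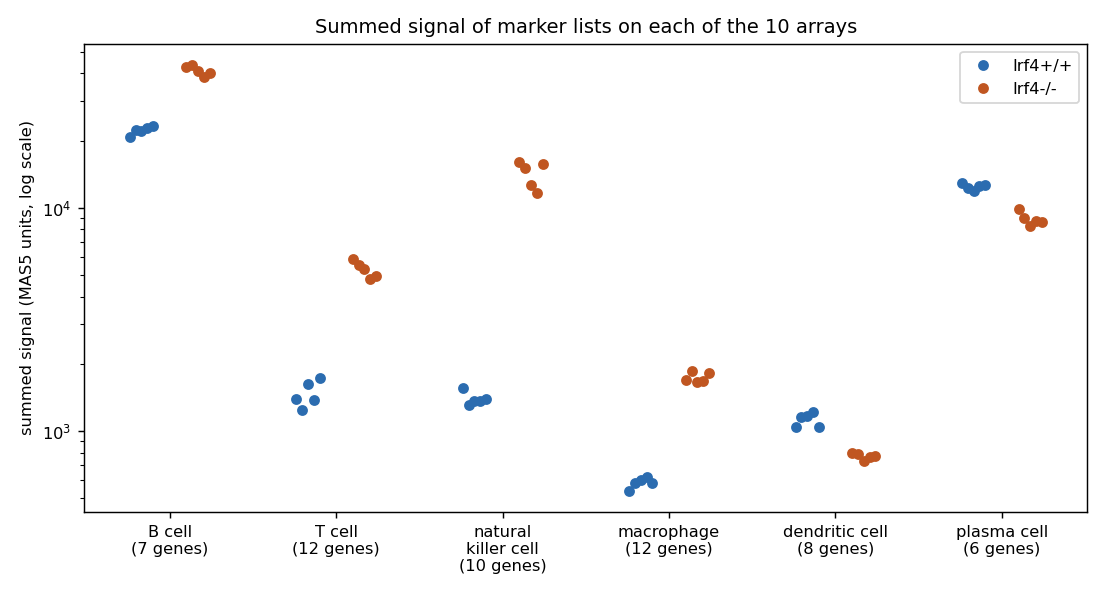
Summed signal of 6 marker lists (y axis, MAS5 units, log scale) on each of the 10 arrays, blue for Irf4+/+ and orange for Irf4-/-, with the number of genes in each list below. The genotypes do not overlap in any list: the B cell, T cell, natural killer cell and macrophage sums are higher in Irf4-/- samples and the dendritic and plasma cell sums lower.

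Promoter sequence was at hand for 7 of the 10 members (RefSeq, build GRCm38.p6, 250 bases before to 50 after a transcript's start), and not for Cd86, Cd83 and Cd28. The sequences of 3 members are shown. Of the 7, Cd80 (chr16:38458683-38458982, + strand) had the most negative and Icosl (chr10:78069118-78069417, + strand) the most positive difference, and Pdcd1lg2 (chr19:29410669-29410968, + strand) held the most motif matches. Capitals mark matches to the motifs given below.
Cd80: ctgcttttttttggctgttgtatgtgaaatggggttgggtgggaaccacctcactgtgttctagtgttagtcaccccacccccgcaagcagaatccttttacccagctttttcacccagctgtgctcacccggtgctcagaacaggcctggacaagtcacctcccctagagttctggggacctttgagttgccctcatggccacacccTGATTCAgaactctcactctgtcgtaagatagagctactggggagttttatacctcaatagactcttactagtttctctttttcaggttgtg
Icosl: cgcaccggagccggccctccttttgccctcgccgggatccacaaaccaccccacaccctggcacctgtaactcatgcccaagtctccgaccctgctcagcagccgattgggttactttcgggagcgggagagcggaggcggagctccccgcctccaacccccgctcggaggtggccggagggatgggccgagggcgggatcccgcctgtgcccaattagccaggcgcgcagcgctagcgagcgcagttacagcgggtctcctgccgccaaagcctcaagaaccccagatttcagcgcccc
Pdcd1lg2: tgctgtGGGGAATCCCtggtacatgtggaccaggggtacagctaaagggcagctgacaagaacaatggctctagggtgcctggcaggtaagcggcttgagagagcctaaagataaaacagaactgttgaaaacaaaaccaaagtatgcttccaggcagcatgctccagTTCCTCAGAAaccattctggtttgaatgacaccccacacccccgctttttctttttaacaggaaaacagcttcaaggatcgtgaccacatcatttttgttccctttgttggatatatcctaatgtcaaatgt
The motifs searched, on both strands, were the AP-1 motif TGANTCA, the STAT motif TTCNNNGAA, and by name NF-kB, the STAT6 variant of the STAT motif with a wider gap, the ETS-IRF composite (GGAA and GAAA, 2 bases apart), the interferon response motif (GAAA and GAAA, 2 bases apart) and AP-1-IRF composites, spaced and adjoining. Each AP-1 composite contains the AP-1 motif. The Cd80 window held 1 AP-1 match, TGATTCA, which begins 42 bases before the start. The Pdcd1lg2 window held an NF-kB match, GGGGAATCCC, and a STAT6 match, TTCCTCAGAA, which begins 82 bases before the start. Among 32544 distinct windows of the same length, 7.79% held an AP-1, 4.53% an NF-kB and 6.98% a STAT6 match. The Cd274, Icosl, Cd276, Ctla4 and Btla windows held no match to any of the 8 motifs. No member's window held the ETS-IRF composite or the interferon response motif, which 2.73% and 3.45% of all windows held. A match is a description of the letters and not a measured binding site.

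The ligands of CD28 and CTLA-4 moved in opposite directions. Cd86 was 6.75-fold higher and Cd80 4.15-fold lower in Irf4-/- samples. On its brightest probe set Cd86 gave 224.9, 242.9, 217.8, 248.6 and 202.8 in Irf4+/+ samples. In Irf4-/- samples it gave 1739, 1625, 1624, 1482 and 1435. The lowest Irf4-/- array thus lay far above the highest Irf4+/+ array. The means were 227.4 ± 18.7 and 1581 ± 122 (SD, n = 5), and the log2 difference was 2.76 (SE 0.0741). With a pseudocount of 32 it was 2.64. Cd86 stood at position 63 from the most positive difference among the 12246 genes tested.

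A further Cd86 probe set read the transcript nearly alike. It gave 157.5 to 227.5 in Irf4+/+ and 1508 to 1726 in Irf4-/- samples, a log2 difference of 2.97 (SE 0.0842) in the fit of all probe sets. Within a genotype the pair deviated together only in part, with a Pearson r of 0.48 over the deviations of the 10 arrays from their genotype means. Macrophages and dendritic cells carry Cd86, Cd80, Cd83 and the PD-1 ligands too, and the part of their markers' shifts in these differences was not tested. The spread within a genotype, 5.08 to 13.3% of the mean over both probe sets, was small beside the difference between genotypes.

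Cd80 went the other way on each of its 3 bright probe sets. On the brightest, Irf4+/+ samples gave 437.4, 423.9, 364.6, 522.6 and 408.5. Irf4-/- samples gave 101.3, 84.1, 107.3, 84.6 and 112.8, so that the transcript remained above the dim level in every array. The means were 431.4 ± 57.9 and 98.0 ± 13.1 (SD, n = 5), the latter 22.7% of the former, and the log2 difference was -2.05 (SE 0.112). Cd80 stood at position 33 from the most negative difference. The next probe set gave 292.5 to 321.4 and 50.9 to 66.7 (log2 difference -2.33, SE 0.106), and the third gave 201.9 to 239.3 and 20.2 to 52.9 (-2.45, SE 0.184). None of these 3 overlapped between genotypes. The remaining Cd80 probe set was dim in both genotypes (25.5 ± 11.1 and 16.6 ± 5.04; SD, n = 5) and was not tested. The log2 difference of Cd80 was -2.28 with the mean of the tested probe sets and -1.83 with a pseudocount of 32.

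**Figure D2:**
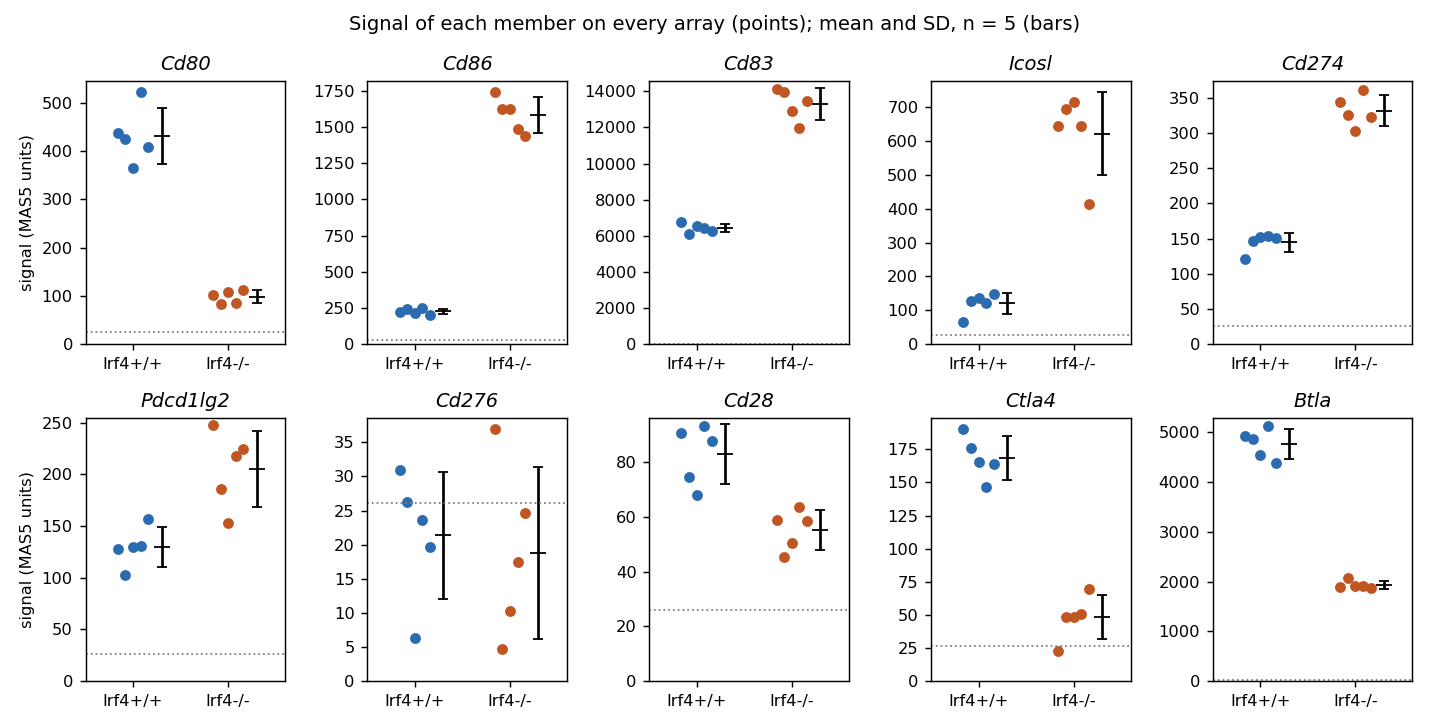
Signal of the brightest probe set of each member (y axes, MAS5 units, from 0; each panel has its own scale) on the 5 Irf4+/+ (blue) and 5 Irf4-/- (orange) arrays, with mean and SD beside the points and a dotted line at 26.1, the dim level. Cd86, Cd83, Icosl and Cd274 are higher and Cd80, Ctla4, Btla and Cd28 lower in every Irf4-/- array, while the groups overlap for Pdcd1lg2 and Cd276.

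Cd80 and Cd86 lie on the same chromosome, with 24 annotated protein-coding genes between them in the RefSeq order of assembly GRCm38.p6. Of these, 15 were tested, of which 3 rose and 4 fell, beside 47.1% of all genes called. Of the immediate neighbours, Timmdc1 beside Cd80 had a log2 difference of 0.04 (limma adjusted p = 0.827) and Casr beside Cd86 one of 0.29 (limma adjusted p = 0.403). Ildr1, on the other side of Cd86, was dim and was not tested.

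The ligand of ICOS was higher too. Icosl gave 66.3, 126.1, 137.3, 122.5 and 149.2 in Irf4+/+ samples on its brighter probe set. In Irf4-/- samples it gave 643.7, 694, 713.7, 645.1 and 412.3. The groups did not overlap, although replicate 5 of Irf4-/- lay well below the other four. The means were 120.3 ± 31.9 and 621.8 ± 121 (SD, n = 5), with a log2 difference of 2.32 (SE 0.183), or 4.98-fold. The dimmer Icosl probe set did not follow. It gave 19.5 to 51.7 and 25.4 to 51.6, a log2 difference of 0.18 (SE 0.282), and the mean of the pair gave 1.25.

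Both ligands of PD-1 were higher, by less. Cd274, which encodes PD-L1, gave 120.9, 146.3, 153, 153.5 and 150.9 in Irf4+/+ samples and 343.9, 326.1, 303.2, 361.8 and 323.1 in Irf4-/- samples. The groups did not overlap, and the log2 difference was 1.15 (SE 0.0906), or 2.23-fold. Pdcd1lg2, which encodes PD-L2, gave 127.4, 102.4, 129.2, 130.7 and 157.1 in Irf4+/+ samples. In Irf4-/- samples it gave 247.4, 185.4, 153, 217.3 and 224. Its groups overlapped, because replicate 3 of Irf4-/- lay below replicate 5 of Irf4+/+. The log2 difference was 0.63 (SE 0.135), or 1.55-fold, and ranged from 0.55 to 0.73 over all alternatives. The pair are immediate neighbours, with 0 protein-coding genes between them. Beside Cd274, Plgrkt, a plasminogen receptor that lies next to it, rose 1.77-fold (log2 difference 0.82, limma adjusted p = 1.44e-07, no overlap). Ric1, next to Pdcd1lg2, had a log2 difference of 0.15 (limma adjusted p = 0.174).

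Cd276, which encodes the B7 family protein B7-H3, was dim throughout. It gave 6.30 to 30.9 in Irf4+/+ and 4.70 to 37.0 in Irf4-/- samples on its single probe set, and the groups overlapped almost fully. It did not pass the filter on dim probe sets and was the single member that was not tested, so these arrays say nothing of its direction.

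Cd83 was 2.07-fold higher in Irf4-/- samples. CD83 is a surface protein of activated B cells and dendritic cells that shields MHC class II and CD86 from ubiquitin-dependent turnover by the ligase MARCH1. It gave 6755, 6127, 6529, 6420 and 6292 in Irf4+/+ samples. In Irf4-/- samples it gave 14138, 13954, 12931, 11991 and 13471. The groups did not overlap, the log2 difference was 1.05 (SE 0.053), and the spread within a genotype was 3.70% and 6.52% of the mean. Its difference was 0.97 with quantile normalization, the lowest of all alternatives.

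The 3 receptors on the list were all lower. Btla gave 4923, 4866, 4552, 5133 and 4378 in Irf4+/+ samples. In Irf4-/- samples it gave 1893, 2080, 1919, 1918 and 1879. The groups lay far apart, at means of 4770 ± 303 and 1938 ± 81.2 (SD, n = 5), the latter 40.6% of the former. The log2 difference was -1.29 (SE 0.0545).

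Ctla4, the inhibitory receptor for CD80 and CD86, gave 190.5, 176.1, 165.1, 146.4 and 164 in Irf4+/+ samples. In Irf4-/- samples it gave 22.8, 48.1, 48.6, 50.8 and 69.5. The groups did not overlap, and the lowest Irf4-/- array lay under the dim level. The log2 difference was -1.71 (SE 0.196), or 3.28-fold, and it ranged from -1.87 to -1.35 with the pseudocount and the other alternatives. Cd28, the activating receptor, was low in both genotypes. Its brighter probe set gave 90.9, 74.5, 68.2, 93.3 and 87.8 in Irf4+/+ samples and 58.8, 45.4, 50.4, 63.6 and 58.4 in Irf4-/- samples. These groups did not overlap (log2 difference -0.52, SE 0.153), but those of its dimmer probe set did, at 33.8 to 101.6 and 23.5 to 73.3 (-0.49, SE 0.295). Ctla4 and Cd28 lie side by side on the chromosome, with 0 protein-coding genes between them.

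T cells are the usual source of Cd28 and Ctla4 transcripts. The 3 defining T cell genes were dim in both genotypes: Cd3e was 9.86 ± 2.28 and 12.0 ± 6.86, Cd3d 5.76 ± 3.63 and 5.68 ± 1.10, and Cd3g 8.06 ± 5.87 and 11.2 ± 12.3 (SD, n = 5). The summed signal of all 12 matched T cell genes was higher in Irf4-/- samples, at 1247 to 1735 and 4798 to 5915, and most of it was Thy1, which rose 4.26-fold to 4932 ± 455. Without Thy1 the other 11 genes summed to 245.4 to 493.8 and 277.8 to 429.1 and overlapped. Of the 5 T cell genes bright enough to test, Thy1 and Cd2 rose, 0 fell, and the median log2 difference was -0.06. Of all genes 23.2% were called higher and 23.8% lower. Cd2 had a mean of 25.5 in Irf4+/+ samples, under the dim level. The part of T cells in the Ctla4 and Cd28 values was not tested.

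In counts, 9 of the 10 members passed the filter on dim signals, and all 9 of these passed the threshold of an adjusted p under 0.05 in the limma fit, of which 5 were higher and 4 lower. Of all 12246 genes tested, 47.1% did so, 23.2% in the higher and 23.8% in the lower direction. No overlap between genotypes was seen for 8 of the 9, against 35.5% of all genes, and 7 were called with at least a 2-fold difference, against 7.74%. Since these members were chosen with the same contrast in view, nothing is read from the counts. The median size of the log2 difference, without its sign, was 1.29 for these 9 and 0.28 for all genes. Of the 16 probe sets, 14 were tested in the fit of all probe sets, where 6 were called higher, 6 lower and 2 were not called, beside 39.7% of all probe sets called. Of the 14, 11 did not overlap between genotypes, against 29.6% of all probe sets.

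**Figure D3:**
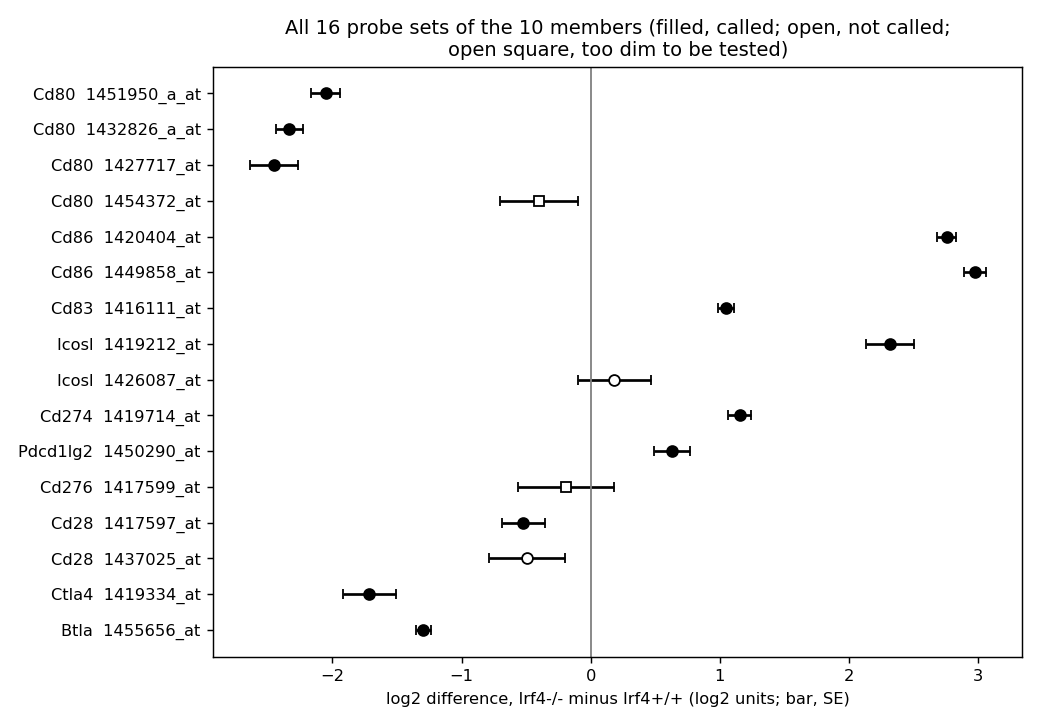
Log2 difference between genotypes (x axis, Irf4-/- minus Irf4+/+, bars SE) of each of the 16 probe sets of the 10 members (y axis). The 3 bright probe sets of Cd80 lie between -2.45 and -2.05 and the 2 of Cd86 at 2.76 and 2.97, while the weakest probe sets of Cd80, Icosl and Cd276 lie at -0.40, 0.18 and -0.19 with wide SE.

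Among the members, arrays of a genotype did not deviate as a group. Over the deviations from the genotype means, Cd80 and Cd86 had a Pearson r of 0.31, over 10 arrays that share their scaling. Among all pairs of tested members, the highest r was 0.65 (Cd86 and Btla) and the lowest -0.63 (Cd86 and Ctla4). Icosl and Cd274 had nearly the same r as the highest, 0.64. Over the log2 values themselves the genotype sets the pattern: the genes most like Cd80 were Usp22, Tipin and Endou (r from 0.9925 to 0.9953) and those most like Cd86 were Serpinb9, Ighv14-2 and Lyst (r from 0.9983 to 0.9987). The most similar genes had differences of very unequal size. Usp22, a deubiquitinating enzyme, had a log2 difference of -0.43 and Endou, an endoribonuclease, one of -3.83, beside -2.05 for Cd80. Over the deviations alone the closest genes to Cd80 were Mbl1, Zfp433 and Serf1, and to Cd86 Cnbp, Slc25a14 and Mgme1, with r from 0.872 to 0.938. The deviations of the brightest Cd80 probe set, used here, did not recur on its other bright probe sets (r of -0.41 and 0.42). These r values are the highest among all genes tested, so nothing is read from the genes named.

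Genes of turnover and trafficking of these proteins were mixed, and the largest change among them was in Marchf1. Of 14 tested, 5 rose, 4 fell and 5 were not called, with a median log2 difference of 0.15 beside 0.0043 over all genes. Of all genes 23.2% were called higher and 23.8% lower. This and the lists that follow were drawn up with earlier results of these data known, so nothing is read from their counts either. Marchf1, whose product MARCH1 ubiquitinates CD86 and MHC class II for degradation, rose 5.34-fold from 118.6 ± 21.6 to 660.1 ± 34.2 (SD, n = 5; log2 difference 2.42, SE 0.111, limma adjusted p = 3.73e-11). A further Marchf1 probe set had the same direction, and the groups of the brighter did not overlap. The transcripts of Cd86, of Marchf1 and of Cd83, whose products act on CD86 in opposite ways, were all higher in Irf4-/- samples. Protein was not measured. Cmtm4, a stabilizer of PD-L1 at the membrane, fell 1.63-fold (limma adjusted p = 1.99e-05, no overlap), and its relative Cmtm6 had a log2 difference of 0.16 (limma adjusted p = 0.166), but 0.21 (limma adjusted p = 0.0217) with the mean of its probe sets. Ap1m1, a clathrin adaptor subunit, rose 1.58-fold (limma adjusted p = 6.61e-05, no overlap). Lrba, which protects CTLA-4 from lysosomal degradation, fell 1.41-fold on its brightest probe set (limma adjusted p = 0.000143), but with the mean of its probe sets the log2 difference was -0.01 (limma adjusted p = 0.931), since a further probe set had the opposite sign.

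Of the other B7-related and checkpoint genes, 24 of 26 were matched and 15 were bright enough to test. Of these 9 rose, 1 fell and 5 were not called, with a median log2 difference of 0.34, beside 23.2% of all genes called higher and 23.8% lower. Tnfrsf14, which encodes HVEM, the ligand of BTLA, was dim in every Irf4+/+ array (4.6 to 9.1) and lay at 31.7 to 90.0 in Irf4-/- samples. Its log2 difference was 3.01 with a pseudocount of 1 and 1.25 with 32, so it has no reliable fold, and it passed the filter only through the Irf4-/- group. A further gene among those that rose passed it the same way, which favours calls of a rise. Cd96, a receptor for nectin-family ligands, rose 3.36-fold to 1522 ± 54.0 (limma adjusted p = 4.92e-13), and Sirpa, a receptor for CD47 that myeloid cells also carry, rose 5.74-fold from 47.6 ± 7.62 (limma adjusted p = 5.88e-11). Cd47 itself, the signal that restrains phagocytes, rose 1.25-fold (limma adjusted p = 8.88e-05). The groups of these 3 did not overlap. Icos and Pdcd1, the receptors for ICOS ligand and for the PD-1 ligands, were weak. Icos was 24.0 to 73.4 in Irf4+/+ and 9.80 to 33.5 in Irf4-/- samples, with a log2 difference of -0.69 (limma adjusted p = 0.0977), and its other tested probe set had the opposite sign. Pdcd1, at 13.1 ± 9.25 and 15.4 ± 11.6 (SD, n = 5), was not tested. Natural killer cells carry Cd96 too, and macrophages Sirpa. The part of the higher natural killer cell and macrophage sums in these values was not tested.

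Costimulators of the TNF family also went both ways. Of 12 matched genes 10 were tested, of which 5 rose, 3 fell and 2 were not called, with a median of 0.26. Of all genes 23.2% were called higher and 23.8% lower. Some of the 5 that rose, Tnfrsf9 among them, were dim in Irf4+/+ samples and passed the filter only through the Irf4-/- group. This favours calls of a rise. Cd40, the receptor through which the cells were stimulated, rose 3.52-fold from 839.4 ± 31.8 to 2977 ± 86.4 (SD, n = 5; limma adjusted p = 5.89e-14). Tnfrsf9, the receptor 4-1BB, was 7.90 to 41.7 in Irf4+/+ samples, with a mean under the dim level, and 142.7 to 199.6 in Irf4-/- samples. Its log2 difference was 3.04 with a pseudocount of 1 and 1.89 with 32. Tnfsf9, which encodes its ligand, fell 2.98-fold from 907.6 ± 105 to 297.8 ± 14.7 (limma adjusted p = 1.39e-10). Tnfrsf8, the receptor CD30, fell 3.45-fold from 202.4 ± 43.0 to 53.0 ± 12.2 (limma adjusted p = 4.88e-07). None of these 4 overlapped between genotypes.

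**Figure D4:**
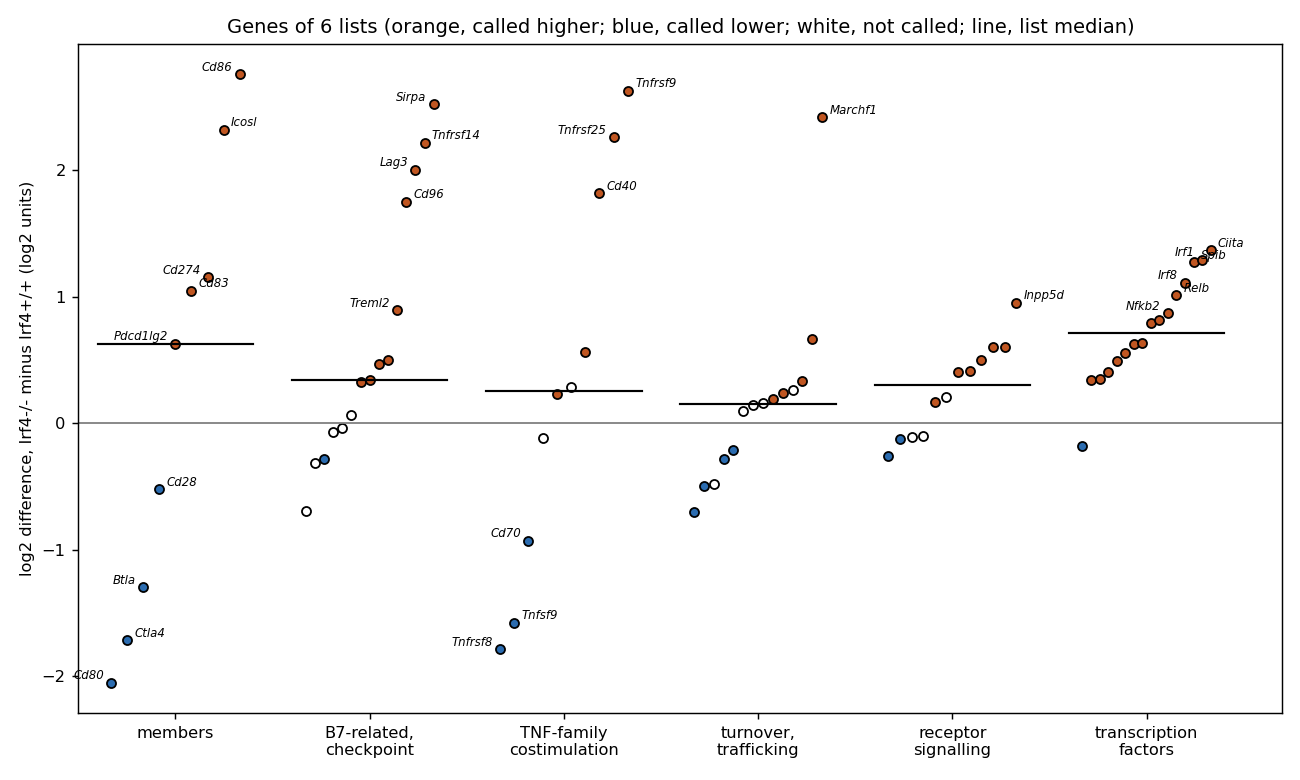
Log2 difference between genotypes (y axis, Irf4-/- minus Irf4+/+) of each tested gene of 6 lists (x axis), orange where called higher, blue where called lower and white where not called, with a line at the list's median. The members run from -2.05 (Cd80) to 2.76 (Cd86), and 15 of 16 transcription factors are above 0.

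Of 16 transcription factors linked to these genes and tested, 15 rose, 1 fell and 0 were not called, with a median log2 difference of 0.71. Of all genes 23.2% were called higher and 23.8% lower. The list was drawn up with earlier results known, so nothing is read from its counts. Irf1, an interferon-induced relative of Irf4 known to drive Cd274, rose 2.44-fold from 814.5 ± 24.6 to 2003 ± 63.0 (SD, n = 5; limma adjusted p = 5.09e-12). The ETS factor Spib rose 2.42-fold (limma adjusted p = 2.93e-11), Irf8, a further relative, 2.16-fold (limma adjusted p = 3.07e-11) and Ciita, the master regulator of MHC class II, 2.58-fold (limma adjusted p = 2.53e-10), all with no overlap. The factor that fell was Rel, an NF-kB subunit of activated lymphocytes, by 0.18 on the log2 scale (limma adjusted p = 0.0122), and it was named after its value was seen. Beside the 23.2% of all genes called higher and 23.8% lower, 7 of 12 signalling genes tested below the receptors rose, 2 fell and 3 were not called. The median of these 12 genes was 0.30. Among them were the inhibitory phosphatases Inpp5d, which encodes SHIP-1 and rose 1.93-fold (limma adjusted p = 4.40e-09), and Ptpn6, which encodes SHP-1, a phosphatase that binds BTLA, and rose 1.52-fold (limma adjusted p = 2.57e-06). Plcg2 rose 1.41-fold (limma adjusted p = 8.16e-07) and the adaptor Grb2 1.32-fold (limma adjusted p = 2.25e-06), and the groups did not overlap for these 4 signalling genes. Macrophages and natural killer cells carry several of these transcripts, and the part of their higher markers in the values was not tested.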

How the data were processed

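Probe-set values of 10 one-colour Affymetrix arrays were used, 5 per genotype. The deposited values are linear signal intensity from MAS5 (named in the submitters' processing notes, with no version). After dropping 2% of values at each end, each array averaged 250.0, so no further normalization was applied. The number of arrays limits the precision.

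Gene symbols came from the platform annotation, updated through gene IDs in a RefSeq table of assembly GRCm38.p6 (34741 of 34945 probe sets with 1 symbol matched). Another 932 probe sets had several symbols and 9160 are not named here. Values were transformed to log2(signal + 7.9), 7.9 being the 20th percentile of all values. Folds given here are on that scale and are too small for dim genes. Probe sets below the 40th percentile of mean log2 value were left out, and the brightest per gene was kept (12246 of 18193 genes). Genotype was fitted in limma 3.58.1 (lmFit, eBayes with a mean-variance trend; R 4.3.3), with Benjamini-Hochberg adjustment over all genes. The procedure was also run on simulated data with independent noise and far fewer changed genes than were called here. No conclusion is drawn from that run.

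The members and lists were chosen with earlier results of these data known. Named are all members and their probe sets, up to 4 called genes of smallest p per list, Irf4, the genes next to Cd80, Cd86 and the PD-1 ligand pair, defining markers and the most similar genes; Rel, Cmtm6, Icos, Pdcd1, Cd2, Thy1, Flt3, Xbp1, Jchain, Cd93, Gzma and Gzmb were picked with their values known. Same-numbered samples did not deviate together (r of deviations from -0.034 to 0.054), so the numbers were not taken to pair them. Alternatives were other pseudocounts, filters, scalings, variance models, probe set choices, array weights, a replicate block and leaving out each array.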

Additional observations from a re-analysis of the deposited data

Results flagged for a closer look

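In 7 of 136 groups of 5 arrays, 1 array stood apart from the other four (its gap to the nearest was over 0.71 of the group's range); chance gives about 1 in 20. Of these, 4 concern members. Icosl on its brighter probe set was 412.3 in Irf4-/- replicate 5, where the others gave 643.7 to 713.7. Cd274 was 120.9 in Irf4+/+ replicate 1, where the others gave 146.3 to 153.5. Btla was 2080 in Irf4-/- replicate 2, where the others gave 1879 to 1919. A Cd80 probe set was 66.7 in Irf4-/- replicate 4, where the others gave 50.9 to 55.2. The 3 other genes were Irf1, at 771.8 in Irf4+/+ replicate 1 (others 817.6 to 834.4), Usp22, at 622.6 in Irf4-/- replicate 2 (others 655.2 to 666.4), and Cd93, at 1436 in Irf4+/+ replicate 1 (others 1135 to 1158). In each of these 7 cases the array lay on its own genotype's side of the difference.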

How the results depend on the processing

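The 9 tested members kept their direction and their call under each of the 22 alternatives (21 for Cd28, which a filter at the 60th percentile removed, leaving 8 members called there). The size of the difference moved by more than the spread between replicates with a pseudocount of 32 for Cd80, Cd86 and Ctla4, and with another choice of probe sets for Cd80 and Icosl, as given beside them. With each array left out the count of members called was 9 throughout, and the count of genes called ranged from 5396 to 5665. With the replicate block 5677 genes and 9 members were called, and no member's call changed. Counts of genes, of probe sets and of other pathway genes called stayed within 1.5 times the main ones under all alternatives run. A filter at the 60th percentile left 8 named genes untested (Cd28, Casr, Cd2, Icos, Mbl1, Ncr1, Tnfrsf14 and Tnfrsf9), and probe sets with unmarked names left out 9 (Adgre1, Casr, Cd40, Cnbp, Grb2, Gzma, Inpp5d, Irf1 and Mgme1). Among the other genes run, calls were lost for Lrba with the mean of its probe sets and for Serf1 when only probe sets whose names carry no mark of shared sequence were used. They were gained for Csf1r with the mean of its probe sets (0.55), with unmarked probe sets (0.88) and without Irf4+/+ replicate 4 (0.36), for Cmtm6 with the mean of its probe sets (0.21) and with unmarked ones (0.26), and for Zfp433 without Irf4-/- replicate 5. Signs turned, with no call, for Icos with the mean of its probe sets (0.0093; -0.84 to -0.47 over all arrays left out in turn), for Mbl1 without Irf4+/+ replicate 4 or Irf4-/- replicate 2 or 4 (-0.28 to 0.17 over all arrays left out in turn) and for Timmdc1 with median scaling (-0.021) or without Irf4+/+ replicate 4 or 5 or Irf4-/- replicate 1 (-0.039 to 0.12 over all arrays left out in turn); the cause was not tested. Dim signals limit what can be said of Cd276 and of 1 Cd80 probe set.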
